A study of Mus musculus with 8 samples.

Results

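The mitochondrial genome encodes 6 subunits of respiratory complexes III to V that are described here in N2A tumors: mt-Cytb of complex III, mt-Co1, mt-Co2 and mt-Co3 of complex IV, and mt-Atp6 and mt-Atp8 of complex V. They were taken by name, as 6 of the 35458 genes to which the quantified transcripts could be assigned, and all 6 passed the filter on low counts. Neuro-2a (N2A) is a mouse neuroblastoma line, and 1000000 of these cells were injected under the skin of female A/JCr mice, which were 4 weeks old when obtained. Once a tumor could be felt, mice were given vehicle (4 tumors, numbered 0 to 3) or the β3-adrenergic receptor antagonist SR59230A (4 tumors, numbered 1 to 4), the latter at 10 mg/kg into the peritoneum 2 times a day. Host cells grow into such tumors, so RNA of the whole mass holds both the N2A cells and the mouse's own cells, and fewer cells of a type and less RNA per cell cannot be told apart. The paper describes its RNA sequencing as done in duplicate, whereas 4 numbered samples per group are used here. Each numbered sample is treated as a tumor of its own. No label says that the tumors came from separate mice, so p-values measure the spread between these samples.

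Complex III passes electrons from ubiquinol to cytochrome c, complex IV passes them from cytochrome c to oxygen, and complex V makes ATP from the proton gradient that the others build. Each is assembled from subunits made in the cytosol and a few made inside the mitochondrion. mt-Cytb carries the b hemes of complex III, mt-Co1 and mt-Co2 hold the heme and copper centers of complex IV, mt-Co3 is the third core subunit of that complex, mt-Atp6 forms part of the proton channel of complex V, and mt-Atp8 is a small subunit of its membrane part. Mitochondrial genes are transcribed as long precursors that are cut into single mRNAs, and most of the cuts fall at the transfer RNAs that lie between the genes.

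In GRCm38 all 6 genes lie on the plus strand of the mitochondrial genome (M) as single exons without introns, and their sequences were read from the GENCODE transcripts of that build. mt-Co1 spans chrM:5328-6872 (1545 bases), mt-Co2 chrM:7013-7696 (684 bases), mt-Atp8 chrM:7766-7969 (204 bases), mt-Atp6 chrM:7927-8607 (681 bases), mt-Co3 chrM:8607-9390 (784 bases) and mt-Cytb chrM:14145-15288 (1144 bases). All begin with ATG. mt-Co3 and mt-Cytb end in a lone T after the last full codon, a stop codon that is completed when the mRNA receives its poly(A) tail, and the other 4 end in TAA. mt-Atp8 and mt-Atp6 share 43 bases and are carried on 1 mRNA, and the annotation places the last base of mt-Atp6 on the first base of mt-Co3. The whole of mt-Atp8 and the start of mt-Atp6 are shown because reads from the shared bases, in capitals, fit both genes.
mt-Atp8: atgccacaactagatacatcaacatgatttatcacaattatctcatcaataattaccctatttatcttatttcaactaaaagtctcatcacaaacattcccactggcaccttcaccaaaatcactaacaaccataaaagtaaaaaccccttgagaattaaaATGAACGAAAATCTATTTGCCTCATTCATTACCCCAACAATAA
mt-Atp6: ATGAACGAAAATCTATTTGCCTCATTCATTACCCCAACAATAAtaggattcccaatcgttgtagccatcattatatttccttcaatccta

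A stretch of the mitochondrial genome is also present in the nuclear genome as unprocessed pseudogenes, and the transcriptome used by the authors held these copies beside the genes. The copies that matter here lie on the minus strand of chromosome 1. Gm28661 (chr1:24614885-24615565) is identical to mt-Co2 over 681 bases, Gm28437 (chr1:24613189-24613971) to mt-Co3 over 783 bases, and Gm10925 (chr1:24613974-24614651) to mt-Atp6 over 678 bases. The 3′ ends are shown because the capitals mark all the bases by which each of these genes differs from its copy. No other base separates them.
mt-Co2: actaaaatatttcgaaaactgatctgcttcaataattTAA
Gm28661: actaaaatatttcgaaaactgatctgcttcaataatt
mt-Co3: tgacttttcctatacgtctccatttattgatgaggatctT
Gm28437: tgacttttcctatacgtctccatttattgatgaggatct
mt-Atp6: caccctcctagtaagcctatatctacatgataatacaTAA
Gm10925: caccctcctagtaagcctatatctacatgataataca
Gm29216 (chr1:24615706-24616197) matches the last 483 bases of mt-Co1 at 99.8% identity. Copies were sought among the GENCODE transcripts only. For mt-Cytb the closest copy was Gm11410, at 92.9% identity over 1142 bases and with at most 2 reads in a tumor. For mt-Atp8 none was found at 90% identity over at least 100 bases. Gm10925 does carry the 43 bases that mt-Atp8 shares with mt-Atp6.

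The reads of mt-Co2 were divided unevenly between the gene and its copies. Of the reads given to either, mt-Co2 itself received 32.2%, 9.24%, 34.3% and 74.6% in vehicle tumors 0 to 3. In SR59230A tumors 1 to 4 it received 23.4%, 74.8%, 51.1% and 41.8%. In 5 of the 8 tumors the copies therefore held more reads than the gene, and the split varied within both groups. mt-Co3 received 47.4%, 74.4%, 43.7% and 64.7% in the vehicle tumors and 74.0%, 76.7%, 61.9% and 43.5% in the SR59230A tumors. mt-Co1 kept between 95.5% and 98.1% and mt-Atp6 between 93.3% and 99.9%. Reads inside identical sequence cannot be assigned to the gene or to the copy. Differences in share of reads are therefore given below both as deposited and with copy reads added for mt-Co1, mt-Co2, mt-Co3 and mt-Atp6. Levels are as deposited where copies are not named.

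**Figure D1:**
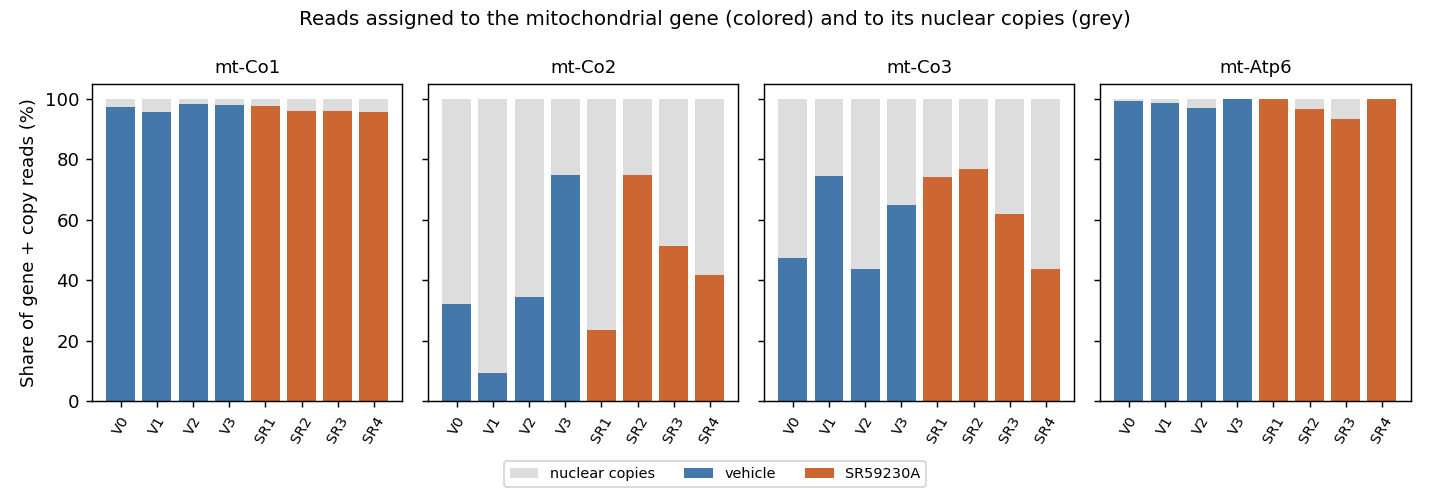
Share (%) of the reads of each gene and its nuclear copies that was given to the mitochondrial gene (colored) or to the copies (grey), with a bar for each tumor (V, vehicle; SR, SR59230A). For mt-Co2 the colored part runs from 9.24% to 74.8%, whereas mt-Co1 and mt-Atp6 stay above 93% in every tumor.

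The tumors held 23484190 to 44045575 estimated reads, and the 13 mitochondrial mRNAs took 1.30% to 7.47% of them as deposited, without the reads of nuclear copies. All 12 neuroblastoma markers were detected in every tumor, and their summed level was 3493 to 4569 CPM (reads of a gene per 1000000 reads) in the vehicle tumors and 2582 to 3330 CPM in the SR59230A tumors. Skeletal muscle markers (10 genes) summed to 6.88 to 10.2 CPM in the vehicle tumors and to 2587, 208, 26.3 and 9.83 CPM in SR59230A tumors 1 to 4, with Myh1, Myh2, Myh4 and Ttn at 0 in at least 1 tumor. Summed levels in the vehicle and SR59230A tumors were 430 to 716 and 473 to 1117 CPM for fibroblast markers (6), 210 to 481 and 367 to 473 CPM for macrophage markers (8), and 130 to 173 and 113 to 152 CPM for endothelial markers (5). They were 44.7 to 204 and 30.4 to 97.2 CPM for erythroid markers (6), 19.7 to 51.9 and 12.1 to 184 CPM for white adipocyte markers (5), 1.29 to 4.96 and 1.14 to 3.46 CPM for brown adipocyte markers (5), 1.41 to 3.41 and 1.12 to 1.46 CPM for T cell markers (6), and at most 0.28 CPM for keratinocyte markers (4). Mrc1 alone made up 148 to 401 CPM of the macrophage sums. The mean log2 (CPM + 1) of the 8 macrophage markers was 3.67 to 4.36 in the vehicle tumors and 3.77 to 4.72 in the SR59230A tumors. The part of any of these cell types in the levels below was not tested.

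Summed over the 6 genes with their copies, the share of reads was 3.35%, 1.49%, 1.43% and 5.60% in vehicle tumors 0 to 3, and 3.46%, 1.48%, 7.23% and 3.23% in SR59230A tumors 1 to 4. The means were 2.97% ± 1.97 and 3.85% ± 2.42 (SD, n = 4 each). The lowest share was in vehicle tumor 2 and the highest in SR59230A tumor 3, but low and high tumors occurred in both groups and the groups overlapped.

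For mt-Cytb, the complex III subunit, the share of reads was 0.298%, 0.107%, 0.126% and 0.618% in vehicle tumors 0 to 3, and 0.355%, 0.0978%, 0.663% and 0.358% in SR59230A tumors 1 to 4. The lowest value of all was in SR59230A tumor 2 and the highest in SR59230A tumor 3. The difference in mean log2 share was 0.43 (exact two-sided permutation test over 70 assignments, p = 0.629, n = 4 each).

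Of the complex IV subunits, mt-Co1 had the largest share, at 1.18%, 0.477%, 0.443% and 2.08% in the vehicle tumors and 1.20%, 0.483%, 2.345% and 1.04% in the SR59230A tumors. The groups overlapped, with a difference in mean log2 share of 0.36 as deposited (exact permutation p = 0.543, n = 4 each) and 0.38 with copies (exact permutation p = 0.486). As deposited, mt-Co2 had 0.155%, 0.0192%, 0.0672% and 0.569% in the vehicle tumors and 0.112%, 0.140%, 0.478% and 0.206% in the SR59230A tumors. The highest value was 29.6 times the lowest.
With its copies added, mt-Co2 had 0.480%, 0.208%, 0.196% and 0.762% in the vehicle tumors and 0.477%, 0.188%, 0.935% and 0.493% in the SR59230A tumors. The highest was then 4.99 times the lowest, close to the 5.42 times of mt-Co1 with its copies. The difference in mean log2 share of mt-Co2 was 0.94 as deposited (exact permutation p = 0.457, n = 4 each) and 0.37 with copies (exact permutation p = 0.629). mt-Co3 had 0.399%, 0.358%, 0.191% and 0.763% in the vehicle tumors and 0.633%, 0.377%, 1.09% and 0.331% in the SR59230A tumors, a difference of 0.51 (exact permutation p = 0.457, n = 4 each). With copies it had 0.841%, 0.480%, 0.436% and 1.18%, and 0.856%, 0.492%, 1.77% and 0.760%, a difference of 0.36 (exact permutation p = 0.486, n = 4 each). Adding the copies thus lowered the difference in mean log2 share for mt-Co2 and mt-Co3, and both remained within the spread of the tumors. For mt-Co2 the means of the shares themselves were 0.203% and 0.234% as deposited and 0.412% and 0.523% with copies, vehicle first. SR59230A was thus the higher group by both measures. Adding the copies widened the gap between these means, whereas it lowered the difference in mean log2 share.

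For the complex V subunit mt-Atp6, the share was 0.435%, 0.157%, 0.179% and 0.771% in the vehicle tumors and 0.450%, 0.164%, 1.11% and 0.438% in the SR59230A tumors. The difference in mean log2 share was 0.48 as deposited (exact permutation p = 0.514, n = 4 each) and 0.50 with copies (exact permutation p = 0.543). mt-Atp8 had 0.0832%, 0.0316%, 0.0349% and 0.152% in the vehicle tumors and 0.0904%, 0.02859%, 0.229% and 0.0917% in the SR59230A tumors, a difference of 0.49 (exact permutation p = 0.6, n = 4 each). In both genes, vehicle tumors 1 and 2 and SR59230A tumor 2 were low and the tumors numbered 3 were high.

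**Figure D2:**
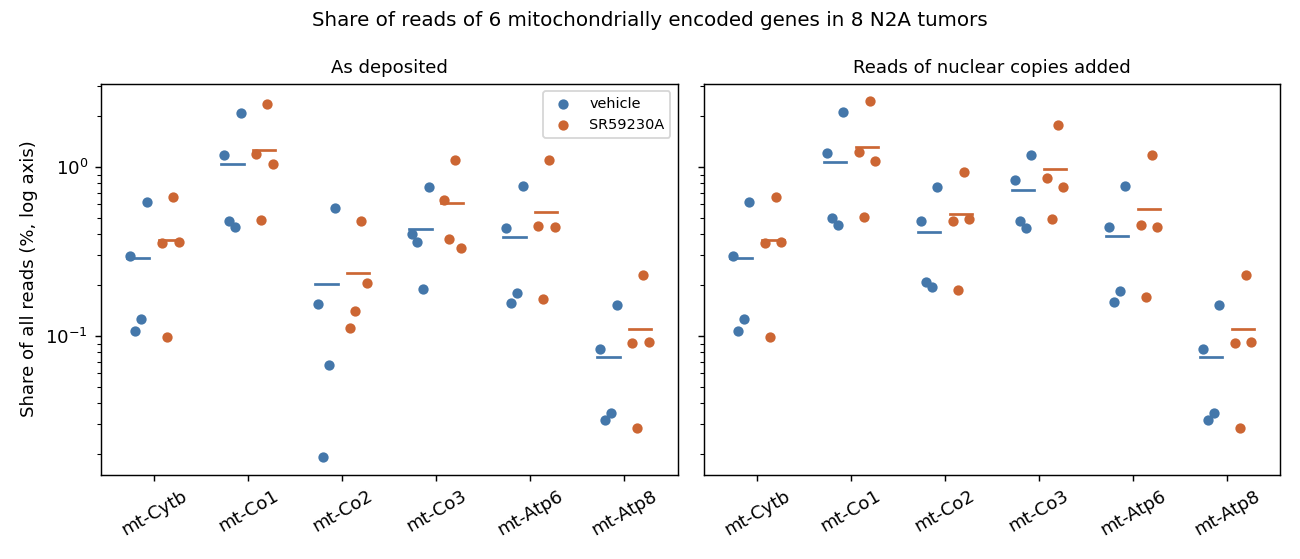
Share of all reads (%, log axis) of the 6 genes in each tumor, as deposited (left) and with the reads of nuclear copies added (right), with points for tumors and lines for group means. The groups overlap for all 6 genes in both panels, and the range of mt-Co2 narrows from 29.6-fold to 4.99-fold.

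In the fit across all genes (edgeR quasi-likelihood test with Benjamini-Hochberg adjustment), a gene was called at an adjusted p under 0.05 when its log2 fold change was 0.5 or more in size. None of the 6 genes was called, beside 0.0% of 15207 genes tested (0 genes, with 706 at an unadjusted p under 0.05). DESeq2 called 37 of 27494 genes (0.135%) and none of the 6 (adjusted p = 0.999). The log2 fold change, SR59230A over vehicle, was 0.37 ± 0.71 (SE) for mt-Cytb, 0.29 ± 0.65 for mt-Co1, 0.21 ± 0.94 for mt-Co2, 0.52 ± 0.53 for mt-Co3, 0.51 ± 0.70 for mt-Atp6 and 0.57 ± 0.72 for mt-Atp8 (edgeR adjusted p = 0.996 for each). All 6 estimates were above 0, as were those of 49.6% of all genes, with a median of 0.44 over the 6 and of -0.0017 over all genes. The 6 are read from shared precursors in the same tumors and are not independent of each other. In log2 CPM, none of the 6 had groups that did not overlap, against 2.61% of all genes.
With copies added, the log2 fold change was 0.31 ± 0.65 for mt-Co1, 0.37 ± 0.61 for mt-Co2, 0.43 ± 0.51 for mt-Co3 and 0.56 ± 0.71 for mt-Atp6 (edgeR adjusted p = 0.996). The standard error of mt-Co2 fell most, and its fold change rose, whereas its difference in mean log2 share fell.

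The direction of these estimates changed with single tumors. Without SR59230A tumor 3, all 6 were below 0 (-0.53 to -0.05, edgeR adjusted p = 0.997 to 1.00). Without vehicle tumor 3 they were 0.94 to 1.63 (edgeR adjusted p = 0.602 to 0.672). mt-Co2 was also below 0 without vehicle tumor 1 (-0.18) or vehicle tumor 2 (-0.09), and with its copies added it was below 0 only without SR59230A tumor 3 (-0.18). Without vehicle tumors 0 and 3 and SR59230A tumor 4, the 6 ranged from 1.54 to 2.71 (edgeR adjusted p = 0.585). Vehicle tumors 1 and 2 against SR59230A tumors 1 and 2 gave 0.82 to 1.53 (edgeR adjusted p = 0.625 to 0.653), and the other 4 tumors gave -0.03 to 0.51 (edgeR adjusted p = 0.999). SR59230A tumors 1 and 2 had the highest muscle marker sums, and without them the 6 ranged from 0.81 to 1.20 (edgeR adjusted p = 0.836 to 0.902).

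**Figure D3:**
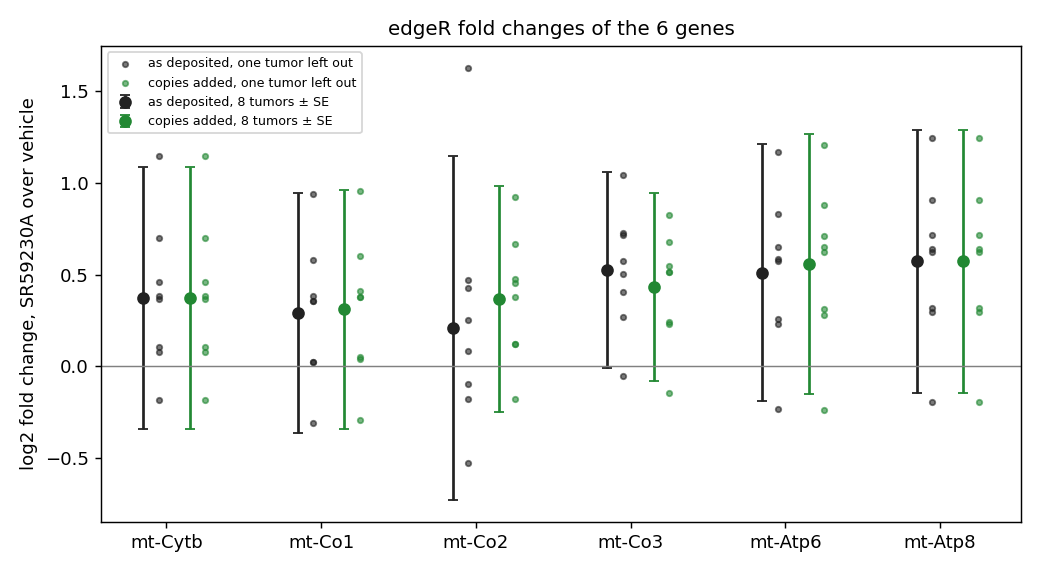
edgeR log2 fold change (SR59230A over vehicle) of the 6 genes with its standard error (large points, 8 tumors), as deposited (black) and with nuclear copies added (green), and the estimates with 1 tumor left out (small points). All large points lie above 0 and, without SR59230A tumor 3, all small points lie below 0.

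To ask whether a gene changed relative to other mitochondrial mRNAs, each was divided by the sum of the other 12 in the same tumor. Shares, these ratios and the mt-Atp8 to mt-Atp6 ratio made 13 tests of the 6 genes as deposited. The same tests were also run for the 7 mitochondrially encoded complex I genes, on other scales and with copies added. As deposited, the log2 ratio of mt-Co1 was -0.70, -0.94, -0.96 and -0.96 in the vehicle tumors and -1.02, -1.12, -1.13 and -1.03 in the SR59230A tumors. The groups did not overlap, and the difference in means was -0.18 (exact permutation p = 0.029, the smallest that 4 against 4 tumors allows). With the copies of all genes added, the log2 ratios of mt-Co1 were -1.19, -1.37, -1.54 and -1.17 in the vehicle tumors and -1.33, -1.31, -1.41 and -1.41 in the SR59230A tumors. The groups then overlapped and the difference was -0.05 (exact permutation p = 0.571, n = 4 each). As deposited and without vehicle tumor 0, the groups still did not overlap. The difference was then -0.12 and missed the threshold, with fewer assignments to test (exact permutation p = 0.0571, n = 3 and 4).
The other ratios did not pass the threshold. For mt-Co2 the mean log2 ratio was -4.47 ± 1.21 in the vehicle tumors and -4.00 ± 0.70 in the SR59230A tumors (SD, n = 4; exact permutation p = 0.571). With copies it was -2.95 ± 0.07 and -3.00 ± 0.12 (SD, n = 4; exact permutation p = 0.486), so the spread between tumors became the smallest of the 6 genes within the vehicle group. The exact permutation p with copies was 0.83 for mt-Co3, 0.914 for mt-Cytb, 0.543 for mt-Atp6 and 0.6 for mt-Atp8 (n = 4 each). mt-Co3 with copies took 28.0% of the mitochondrial mRNA reads in SR59230A tumor 2 and 26.9% in vehicle tumor 1, against 17.1% in vehicle tumor 3, and was the gene whose part in the total varied most widely in percentage points.

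**Figure D4:**
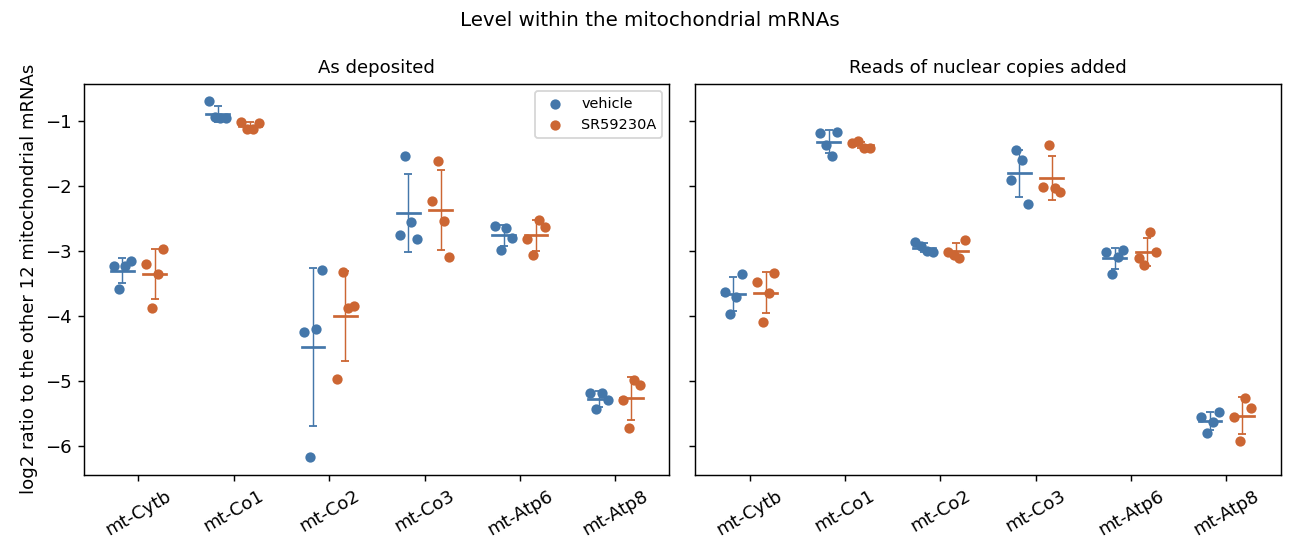
log2 ratio of each gene to the summed reads of the other 12 mitochondrial mRNAs in each tumor, as deposited (left) and with nuclear copies added (right), with group means and SD (n = 4). The groups of mt-Co1 are apart on the left, with a difference of -0.18, and overlap on the right.

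mt-Atp8 and mt-Atp6 share an mRNA, and their ratio of reads was 0.191, 0.201, 0.195 and 0.197 in vehicle tumors 0 to 3 and 0.201, 0.174, 0.207 and 0.209 in SR59230A tumors 1 to 4. The lowest value was in SR59230A tumor 2. The mean log2 ratio was -2.35 ± 0.03 and -2.34 ± 0.12 (SD, n = 4), a difference of 0.009 (exact permutation p = 0.971). This ratio varied far less between tumors than either gene did.

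The order of the 6 genes by level depended on the scale and on the copies. By share of reads per 1000 annotated bases with copies added, mt-Co3 was highest (mean over 8 tumors 1.09 ± 0.57, SD), followed by mt-Co1 (0.77 ± 0.49), mt-Atp6 (0.70 ± 0.52), mt-Co2 (0.68 ± 0.40), mt-Atp8 (0.45 ± 0.34) and mt-Cytb (0.29 ± 0.19). Compared within each tumor, mt-Co3 exceeded mt-Co1 in 8 of 8 tumors and mt-Co1 exceeded mt-Atp6 in 7. mt-Atp6 exceeded mt-Co2 in only 2, so these neighbors had no clear order. mt-Co2 exceeded mt-Atp8, and mt-Atp8 exceeded mt-Cytb, in 8 of 8. As deposited, mt-Co2 fell to just above mt-Cytb in the mean (0.32 ± 0.29), and it exceeded mt-Cytb in 3 of 8 tumors.
By TPM, the relative number of transcripts, which divides reads by the length open to whole fragments, mt-Atp8 stood first with a mean of 16160 ± 8960 TPM in the vehicle tumors and 25530 ± 18020 TPM in the SR59230A tumors (SD, n = 4). The effective length given to mt-Atp8 was 57 to 62 of its 204 bases, against 1344 to 1480 of 1545 bases for mt-Co1. With copies added, mt-Atp8 and mt-Co3 had no clear order in TPM, with mt-Atp8 higher in 5 of 8 tumors. With copies added, mt-Cytb stood last of the 6 on both scales. As deposited it was last in the mean, with mt-Co2 above it in 3 of 8 tumors per 1000 bases and in 6 of 8 in TPM.

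The nuclear genes for subunits of the same complexes did not share the range of the mitochondrial ones. The 35 nuclear subunit genes of complexes III to V (9, 11 and 15) together took 0.501%, 0.757%, 0.8291% and 0.480% of reads in vehicle tumors 0 to 3 and 0.765%, 0.750%, 0.509% and 0.548% in SR59230A tumors 1 to 4. The 4 tumors with the lowest nuclear sums were vehicle tumors 0 and 3 and SR59230A tumors 3 and 4. SR59230A tumor 3, with the highest share of the 6 mitochondrial genes, had a nuclear sum close to that of vehicle tumor 0. The ratio of the 6 genes with copies to the 35 nuclear genes ran from 1.72 in vehicle tumor 2 to 14.2 in SR59230A tumor 3. The share of reads on transcripts with retained introns, 2.48% to 4.20%, was highest in the tumors numbered 3 and in SR59230A tumor 1, and lowest in SR59230A tumor 2. The share on olfactory receptor transcripts was also highest in the tumors numbered 3, at 0.381% (vehicle) and 0.321% (SR59230A). It was lowest in vehicle tumor 2, at 0.106%. The part of either share in the mitochondrial share was not tested.

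**Figure D5:**
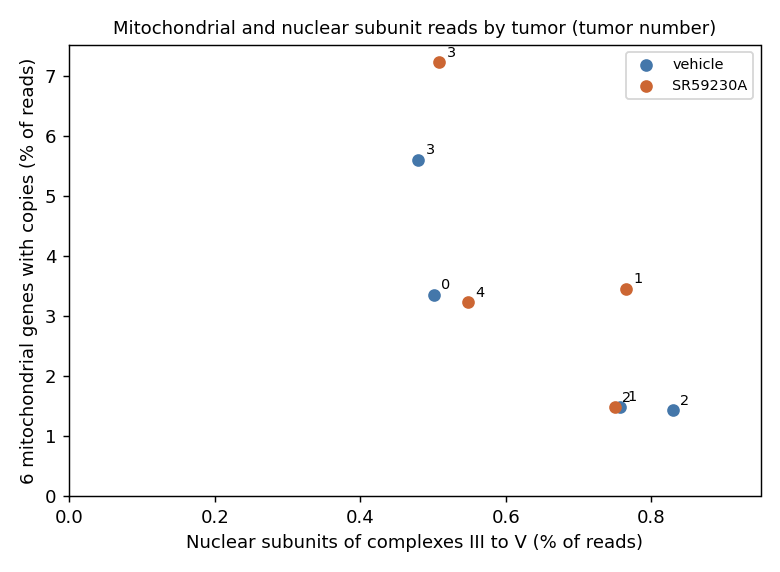
Share of reads (%) of the 6 mitochondrial genes with their copies against that of 35 nuclear subunit genes of complexes III to V in each tumor, labeled by tumor number. The tumors numbered 3 are highest on the vertical axis, at 5.60% and 7.23%, with 0.480% and 0.509% on the horizontal axis.

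Of the other lists fixed for these complexes and for mitochondria, no gene was called by edgeR. Of the 35 nuclear subunit genes, 25 had a log2 fold change above 0, with a median of 0.04 and none at an unadjusted p under 0.05. Examples with the smallest p were Uqcrb (complex III, -0.21 ± 0.12 SE), Cox5a (complex IV, 0.27 ± 0.17) and Atp5l (complex V, 0.29 ± 0.14), each at an edgeR adjusted p of 0.996. Among 27 tested genes for assembly of complexes III to V, the median was 0.0035, and Cox11, which delivers copper to mt-Co1, had 0.49 ± 0.19, and Atpaf1, an assembly factor of the F1 part of complex V, 0.53 ± 0.22 (edgeR adjusted p = 0.996).
Of 10 genes of mitochondrial DNA maintenance and transcription, 4 had values above 0 and the median was -0.03. Top1mt, the mitochondrial topoisomerase, had -0.33 ± 0.11 with every SR59230A tumor below every vehicle tumor (edgeR adjusted p = 0.996), beside 2.61% of all genes without overlap in either direction. Among 19 genes of mitochondrial RNA processing and stability the median was 0.02 and the values of Tbrg4 and Pnpt1 were both 0.17. The median of 13 nuclear genes that follow mitochondrial mass was -0.002. Of the muscle isoforms of complex IV, 2 of 3 were tested: Cox6a2 had 1.59 ± 0.82 (edgeR adjusted p = 0.996), with 2.46 CPM in SR59230A tumor 1 and under 1 CPM elsewhere, and Cox7a1 had -0.02 ± 0.23.
The 7 mitochondrially encoded subunits of complex I had a median of 0.47, with 6 above 0 and none called. mt-Nd3 had 1.57 ± 0.36 (edgeR unadjusted p = 0.00155, adjusted p = 0.996). It was the only gene of these lists called by DESeq2 (1.56 ± 0.31, adjusted p = 0.00248, as deposited). Its copy Gm28438 differs from it by 1 base over 345 aligned bases, and mt-Nd3 received 29.2% to 38.3% of the reads of both in the vehicle tumors and 50.8% to 64.1% in the SR59230A tumors. The difference in mean log2 share of mt-Nd3 was 1.42 as deposited, with groups that did not overlap (exact permutation p = 0.029, n = 4 each). With its copies added it was 0.60 and the groups overlapped (exact permutation p = 0.257, n = 4 each). The 2 mitochondrial ribosomal RNAs were not among the genes to which quantified transcripts could be assigned, so they have no values here.

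The 5 protein-coding genes outside the mitochondrial genome whose log2 CPM over the 8 tumors was most like the mean of the 6 were A530064D06Rik, D130040H23Rik, Uba1y, Tnfrsf10b and Ak9 (Pearson r = 0.993, 0.992, 0.992, 0.992 and 0.991, n = 8 tumors). Their log2 fold changes ran from 0.29 to 0.43. A530064D06Rik had 3.22, 1.27, 1.18 and 5.91 CPM in vehicle tumors 0 to 3 and 3.08, 1.46, 6.87 and 3.49 CPM in SR59230A tumors 1 to 4. Uba1y (0.53 to 3.37 CPM) and Ak9 (0.31 to 2.59 CPM) had low counts. Both were under 1 CPM in vehicle tumors 1 and 2 and SR59230A tumor 2. The likeness is a description: of 14351 genes compared, 733 had r above 0.9, and the points share their libraries.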

How the data were processed

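Total RNA of 8 tumors was sequenced from stranded libraries depleted of ribosomal RNA. The authors quantified reads with Salmon on a GRCm38 transcriptome (the processing notes name GRCm39), and deposited, for each tumor and transcript, expected counts (estimated, not whole), TPM and effective lengths. A further deposited table holds gene counts divided by DESeq2 size factors, a signal scaled between libraries. Of 116747 transcripts, 115685 (99.1%) matched GENCODE M21 (GRCm38) by identifier, and 13 are mitochondrial.

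Expected counts were summed per gene and rounded. SR59230A was compared with vehicle by the quasi-likelihood test of edgeR 4.0.16 in R 4.3.3, after its filter on low counts and TMM scaling. For shares and ratios, two-sided p-values came from all 70 assignments of the tumors (exact permutation, smallest p 0.029). Nuclear copies were sought among the GENCODE M21 transcripts with blastn 2.17.0 (at least 90% identity over 100 bases). Standard errors are the log2 fold change divided by the root of the F statistic. CPM for the likeness and the non-overlap of log2 CPM were scaled by TMM with a prior count of 2. Alternatives used DESeq2 1.42.0, limma 3.58.1 (pseudocounts 1 and 0.1 on TPM, and 1 on normalized counts with a mean of at least 10), other scaling, no filter, length offsets, the replicate number as a block, and fewer tumors. Copies in DESeq2, in fewer tumors or in the mt-Atp8 to mt-Atp6 ratio, the normalized counts, and tumors 1 to 3 without the block were chosen after seeing the data. The edgeR fit was also run on simulated counts drawn independently for each gene. That run cannot speak to variation that genes share in these tumors. Totals of 23484190 to 44045575 reads leave little counting error for these genes.

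The 6 genes and the lists were chosen with earlier results of these data known. Named genes were the 6, up to 2 genes of each other list with the smallest unadjusted p, of which not all are printed, the 5 most like the mean of the 6, and nuclear copies.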

Additional observations from a re-analysis of the deposited data

Results flagged for a closer look

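In 58 groups of 4 tumors examined for a value far from the rest (a gap to the nearest other tumor of most of the group's range, by Dixon's 95% critical value), 2 stood apart, and chance gives about 1 in 20. As deposited, the log2 ratio of mt-Co1 to the other mitochondrial mRNAs was -0.6997 in vehicle tumor 0, against -0.9595 to -0.9427 in the other vehicle tumors. With copies added, the log2 ratio of mt-Co3 was -1.363 in SR59230A tumor 2, against -2.088 to -2.016 in the other SR59230A tumors.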

How the results depend on the processing

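edgeR called 0 genes over all 8 tumors. The count was 37 with DESeq2 (25 with copies added), 5 in vehicle tumors 0 and 3 against SR59230A tumors 3 and 4 (5 with copies added), 1 in tumors 1 to 3 of both groups, and 0 to 1 with each tumor left out. The replicate number as a block in tumors 1 to 3 called 0 genes and gave the 6 genes 0.49 to 1.12. Deviations of same-numbered tumors correlated at -0.0944, 0.601 and 0.598, and vehicle 1 correlated best with SR59230A 2 (0.583), so the numbers were not taken as pairs.

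With each tumor left out, the log2 fold change ranged from -0.31 to 0.94 for mt-Co1, -0.53 to 1.63 for mt-Co2, -0.052 to 1.04 for mt-Co3, -0.18 to 1.15 for mt-Cytb, -0.23 to 1.17 for mt-Atp6 and -0.19 to 1.24 for mt-Atp8. With copies added the ranges were -0.29 to 0.95 for mt-Co1, -0.18 to 0.92 for mt-Co2, -0.15 to 0.82 for mt-Co3 and -0.24 to 1.21 for mt-Atp6. mt-Co2 was -0.028 in vehicle 0 and 3 against SR59230A 3 and 4. Under the other settings each kept its direction without being called. With each tumor left out, the difference in mean log2 share ranged from -0.0084 to 0.79 for mt-Co1, 0.13 (without vehicle 1) to 1.76 (without vehicle 3) for mt-Co2, 0.18 to 0.85 for mt-Co3, 0.054 to 0.97 for mt-Cytb, 0.032 to 0.95 for mt-Atp6 and 0.018 to 1.02 for mt-Atp8. Except for mt-Co2, the lowest value was the one without SR59230A 3.

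For the ratio to the other mitochondrial mRNAs, the ranges with each tumor left out were -0.21 to -0.12 for mt-Co1, -0.087 to 0.87 for mt-Co2, -0.21 to 0.33 for mt-Co3, -0.18 to 0.13 for mt-Cytb, -0.078 to 0.10 for mt-Atp6 and -0.085 to 0.16 for mt-Atp8. With copies added the sign turned for mt-Co2 (-0.050), mt-Co3 (-0.066), mt-Cytb (0.023) and mt-Atp6 (0.098). With TPM it turned for mt-Co3 (-0.036) and mt-Atp8 (-0.065). Without the tumors numbered 3 it turned for mt-Co3 (-0.037), mt-Cytb (0.00067) and mt-Atp8 (-0.092), and without vehicle 0, vehicle 3 and SR59230A 4 for mt-Co3 (-0.091), mt-Atp6 (0.013) and mt-Atp8 (-0.023). The mt-Atp8 to mt-Atp6 ratio difference ranged from -0.019 to 0.069 with each tumor left out, and was -0.012 without the tumors numbered 3, -0.034 without vehicle 0, vehicle 3 and SR59230A 4, and -0.0092 with copies added to mt-Atp6. The cause of these turns was not tested.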
